A study of Homo sapiens with 8 samples.

Results

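The imprinted genes H19, MEG3, DLK1, PEG3, PEG10, MEST, NNAT, SNRPN, NDN and PHLDA2, were followed in neuroblastoma cells with and without a TRPM7 shRNA. All 20 probes that carry the symbol of any of these 10 genes were taken, out of 47322 probes and 31426 gene symbols on the array. The data come from 8 Illumina HumanHT-12 v4 bead arrays, hybridised with RNA of human SH-SY5Y cells, which are neuroblastic, and SH-EP2 cells, which are epithelial-like. Both lines are subclones of the same parental neuroblastoma line. Cells of each line carried a stable lentiviral vector with either a nonfunctional shRNA (control) or 1 shRNA against TRPM7, an ion channel with a kinase domain. This gives 4 groups of 2 arrays. Only 1 TRPM7 shRNA was on the arrays, so effects of its sequence on other transcripts were not tested. Nothing in the labels says that the 2 arrays of a group come from separate cultures, and p-values then measure the spread between these arrays, which may be technical.

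Imprinted genes are expressed mainly from the copy inherited from 1 parent, because DNA methylation laid down in the egg or sperm marks a control region near the gene. They lie in clusters in which coding genes and long noncoding RNAs share such a region, and many act in fetal growth and in the development of brain and endocrine tissue. DLK1, PEG3, PEG10, MEST, NNAT, SNRPN and NDN are known as paternally expressed, and H19, MEG3 and PHLDA2 as maternally expressed. Bead arrays sum the transcripts of both copies, so they do not tell the alleles apart. Likewise, fewer expressing cells and less RNA per cell cannot be told apart in such bulk samples.

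The sequences upstream of 3 members are shown because methylation of CpG dinucleotides is the mark by which imprinted loci are known, and because these 3 differ in CpG number and in their expression pattern. Each is the stretch of 250 bases just before an annotated transcript start, from RefSeq on GRCh38.p14. Where a gene had several such windows, the one with the most CpG dinucleotides is shown. Sequences run 5′ to 3′ on the strand of the gene, with CpG dinucleotides in capitals. H19 is at chr11:2001267-2001516 (minus strand), NDN at chr15:23687306-23687555 (minus strand) and SNRPN at chr15:24954737-24954986 (plus strand).
H19: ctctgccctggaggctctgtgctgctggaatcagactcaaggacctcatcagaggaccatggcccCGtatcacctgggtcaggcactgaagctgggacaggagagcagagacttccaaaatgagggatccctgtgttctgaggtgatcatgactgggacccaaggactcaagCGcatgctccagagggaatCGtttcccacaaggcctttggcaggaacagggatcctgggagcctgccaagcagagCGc
NDN: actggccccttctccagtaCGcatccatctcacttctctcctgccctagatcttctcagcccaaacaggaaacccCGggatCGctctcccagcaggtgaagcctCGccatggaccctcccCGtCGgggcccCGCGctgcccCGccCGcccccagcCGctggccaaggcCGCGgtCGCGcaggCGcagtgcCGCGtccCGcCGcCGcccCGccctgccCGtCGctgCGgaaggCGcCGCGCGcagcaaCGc
SNRPN: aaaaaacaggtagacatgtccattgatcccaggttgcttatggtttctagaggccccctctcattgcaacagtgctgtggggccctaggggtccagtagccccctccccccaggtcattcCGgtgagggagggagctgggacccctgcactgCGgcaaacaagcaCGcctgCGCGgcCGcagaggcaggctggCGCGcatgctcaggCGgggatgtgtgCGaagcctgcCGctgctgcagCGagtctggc
The H19 window holds 4 CpG dinucleotides, and 70.7% of 35116 such windows held as many or more. The NDN window, upstream of a gene expressed in SH-SY5Y cells alone, holds 30, a number reached by 12.4% of windows. The SNRPN window, upstream of a gene expressed in both lines, holds 12, close to the median of 11. It is the highest of the SNRPN windows, and the others hold 6, 1 and 6. The hexamer TGCCGC, which the imprinting factor ZFP57 binds when methylated, was searched on both strands. It was found 0 times in the H19 window, 1 time in the NDN window and 2 times in the SNRPN window shown. The other SNRPN windows held it 0, 0 and 1 time, while 12.7% of all windows held it. In all, 5 of the 10 members (H19, MEG3, MEST, NDN and SNRPN) had windows, and 7 of their 14 windows, some of which overlap, held the hexamer. Methylation was not measured.

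Median bead signals ranged from 104.7 to 119.9 over the 8 arrays, and each array detected between 40.8% and 44.2% of its probes, taken as those with a detection p-value below 0.05. The TRPM7 probe was not detected on any array, with detection p-values from 0.0753 to 0.136 in SH-SY5Y and from 0.105 to 0.201 in SH-EP2 cells, so the knockdown itself could not be read here. The lines carried their markers. Of 10 noradrenergic genes, 9 were detected on both SH-SY5Y control arrays and 5 on both SH-EP2 control arrays, with median log2 signals of 11.02 and 3.25. Of 10 mesenchymal genes, 6 and 10 were detected, with medians of 4.88 and 11.25.

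Several members were detected in 1 line alone, or were bright in 1 line and near the background in the other. SNRPN and PEG10 were detected on all 8 arrays. DLK1 and NDN were detected in SH-SY5Y cells alone, NNAT and PEG3 were bright in SH-SY5Y and at or near the background in SH-EP2 cells, and PHLDA2 was detected in SH-EP2 cells alone. H19 was detected only on the control arrays of SH-EP2. MEG3 was detected on no array, and MEST by 1 of its 3 probes on a single TRPM7 shRNA array of SH-SY5Y. Counted by probe, 13 of 20 probes, of 8 genes, were detected on both arrays of at least 1 group, 5 probes on all 8 arrays and 6 on none. Detection on all 4 arrays of SH-SY5Y and none of SH-EP2 was seen for 4 of the 20 probes, of 3 genes, against 1.97% of all probes. The reverse was seen for 1 of the 20, against 1.65% of all probes. In the wider list of other imprinted genes described below, the counts were 4 and 1 of 73 probes.

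**Figure D1:**
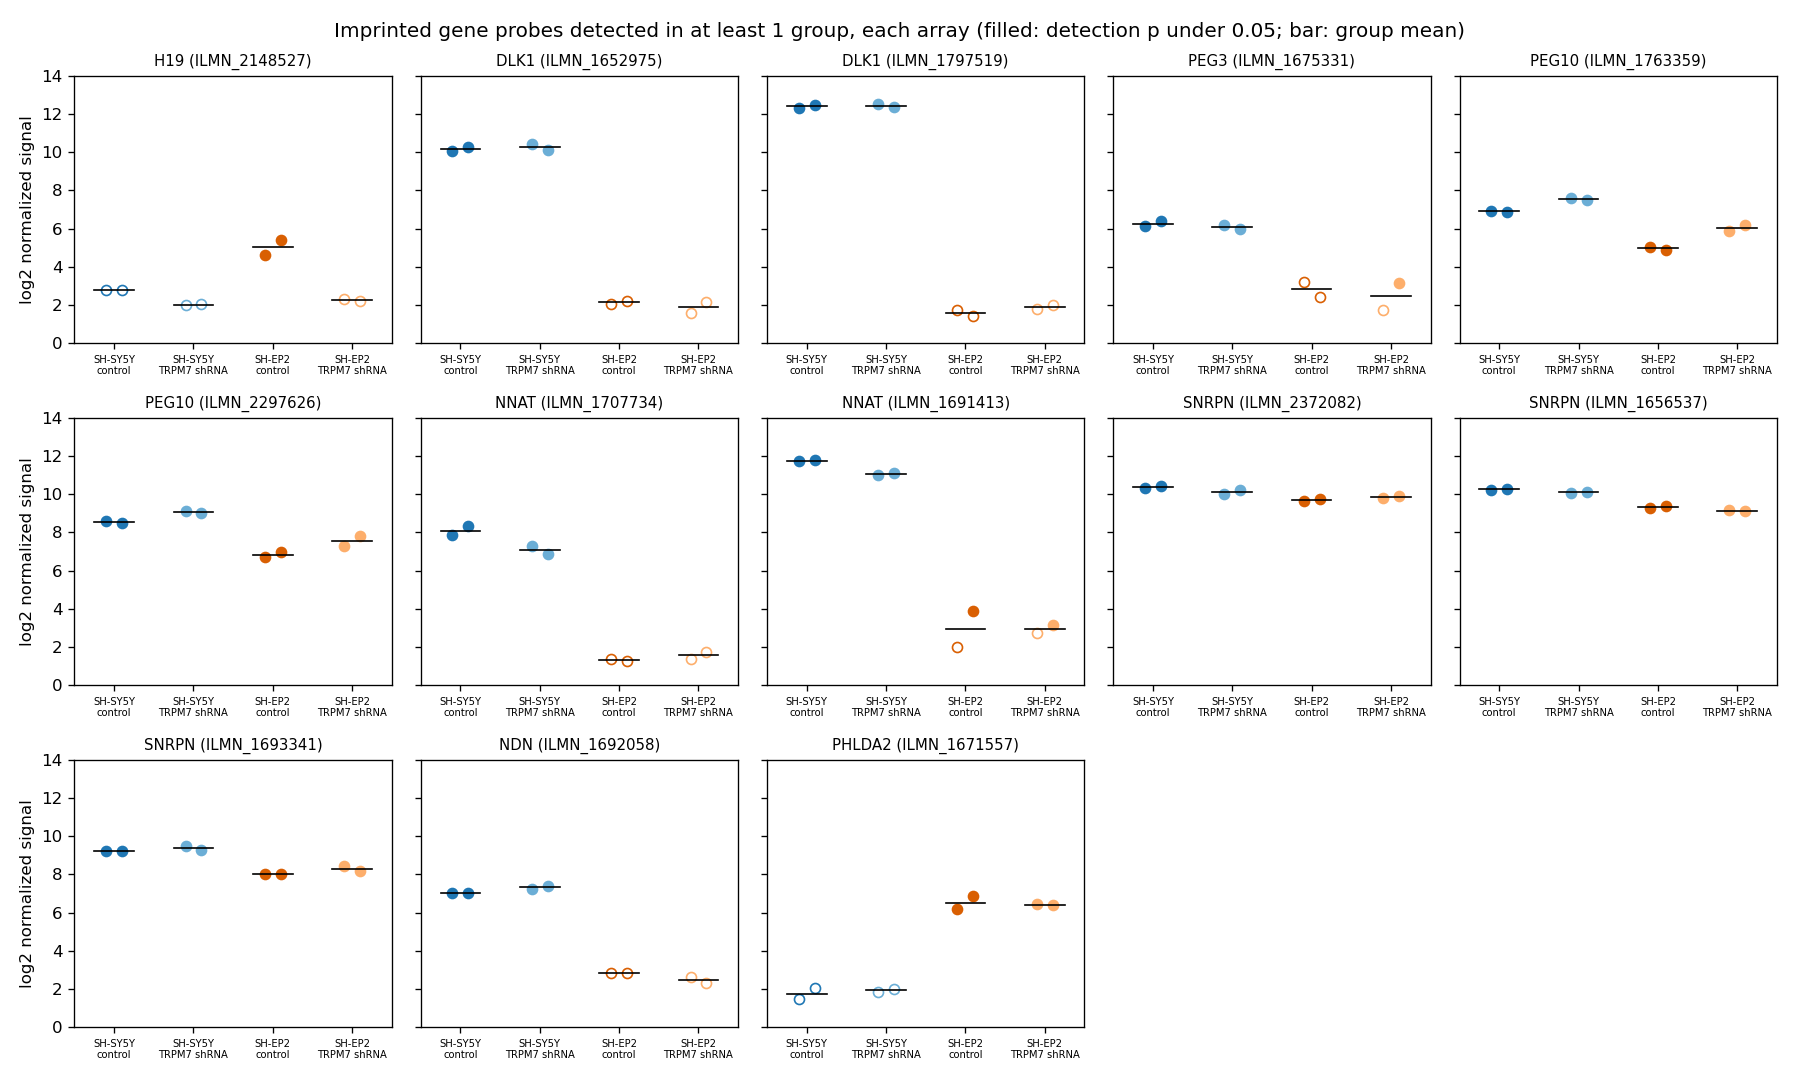
Log2 normalized signal (vertical axis) of the 13 imprinted gene probes that were detected on both arrays of at least 1 group, in the 4 groups (horizontal axis). Each point is an array, filled where detected, and the line is the group mean; H19 is filled in SH-EP2 control cells alone, PHLDA2 in SH-EP2 cells alone, and DLK1 and NDN in SH-SY5Y cells alone.

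In control cells, 11 member probes of 6 genes (DLK1, PEG3, PEG10, NNAT, SNRPN and NDN) were higher in SH-SY5Y, and 2 probes of 2 genes (H19 and PHLDA2) were lower. Among all probes, 13.5% were called higher and 11.7% lower in SH-SY5Y under the same rule. That rule was an adjusted p under 0.05 and 2 of 2 arrays detected in whichever group is brighter. Undetected probes could thus not be called. Of the 19975 probes detected on both arrays of either control group, 6382 were higher and 5551 lower. For the members this was 11 and 2 of 13. In TRPM7 shRNA cells, which are other arrays, 11 probes of the same 6 genes were higher and 1, of PHLDA2, was lower. Of all probes, 13.5% and 11.7% were again higher and lower. Of 20690 probes detected there on both arrays of either group, 6400 were higher and 5534 lower, beside 11 and 1 of 12 member probes. The median log2 difference between the lines was 1.94 over 13 detected member probes in control cells, beside 0.074 over all detected probes. In TRPM7 shRNA cells it was 2.58 over 12 member probes, beside 0.070. These medians cover different probes, because H19, at -2.25 in control cells, was undetected in TRPM7 shRNA cells and is not among the 12. They therefore show no rise from control to TRPM7 shRNA cells. The members were chosen with earlier results of these data known. Over the wider list of imprinted genes described below, the medians were 0.12 in control and 0.26 in TRPM7 shRNA cells. The member medians thus do not speak for imprinted genes in general. Scaling the arrays to 1 median in place of quantile normalization moved the median of all detected probes in TRPM7 shRNA cells from 0.070 to 0.246.

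DLK1, a transmembrane protein with EGF repeats related to the Notch ligands and known from neuroendocrine and adrenal tissue, was bright in SH-SY5Y cells and at background in SH-EP2 cells. On the normalized log2 scale, probe ILMN_1797519 read 12.34 and 12.50 in SH-SY5Y control cells and 12.51 and 12.37 in SH-SY5Y TRPM7 shRNA cells, against 1.73 and 1.41, and 1.77 and 2.00, in the corresponding SH-EP2 cells. The SH-EP2 values are background, with detection p-values from 0.535 to 0.958. Where a group was undetected on both arrays, a fold change is given as a lower limit, set against the dimmest detected probe of those arrays, and beside it the adjusted p of the fit (limma, Benjamini-Hochberg over all probes). This probe was at least 588-fold brighter in SH-SY5Y control cells (adjusted p = 2.99e-20) and at least 617-fold brighter in TRPM7 shRNA cells (adjusted p = 4.74e-20). The other probe, ILMN_1652975, read 10.06 and 10.25 in SH-SY5Y control cells and 2.04 and 2.22 in SH-EP2 control cells, a difference of at least 122-fold (adjusted p = 2.32e-16). Values of the lines did not overlap for either probe. The lower limits given here and below rest on the main background correction and do not hold under every setting. Over the alternative settings, the smallest fitted log2 difference between control cells was 5.80 for ILMN_1797519 and 3.53 for ILMN_1652975.

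NNAT, neuronatin, a small proteolipid of the endoplasmic reticulum of neural and endocrine cells, was bright in SH-SY5Y cells as well. ILMN_1691413 read 11.76 and 11.78 in SH-SY5Y control cells and 10.99 and 11.13 in TRPM7 shRNA cells. In SH-EP2 cells it read 1.98 and 3.88 in control cells and 2.71 and 3.15 in TRPM7 shRNA cells, with 1 of 2 arrays detected in each group. With each SH-EP2 array set no lower than its dimmest detected probe, it was at least 297-fold higher in SH-SY5Y control cells (adjusted p = 4.9e-14) and at least 237-fold higher in TRPM7 shRNA cells (adjusted p = 1.93e-13). The fitted log2 difference in control cells was 8.84, and 7.90 to 9.80 on leaving out 1 array. ILMN_1707734 was dimmer, at 7.85 and 8.32 in SH-SY5Y control cells, was undetected on all 4 SH-EP2 arrays, and was at least 29.1-fold higher in SH-SY5Y control cells (adjusted p = 1.33e-12). Over the alternative settings, the smallest fitted log2 difference between control cells was 4.95 for ILMN_1691413 and 2.01 for ILMN_1707734, below these limits. Both probes thus read bright in 1 line and at or near background in the other.

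NDN, necdin, a MAGE family protein of postmitotic neurons, read 7.04 and 7.02 in SH-SY5Y control cells, 7.24 and 7.40 in TRPM7 shRNA cells, and 2.30 to 2.83 in SH-EP2 cells, where no array detected it. It was at least 13.99-fold higher in SH-SY5Y control cells (adjusted p = 1.47e-10) and at least 17.8-fold higher in TRPM7 shRNA cells (adjusted p = 1.46e-11). PEG3, a zinc finger protein, read 6.14 and 6.38 in SH-SY5Y control cells, and 3.22 and 2.40, both undetected, in SH-EP2 control cells. The difference was at least 8.20-fold (adjusted p = 1.28e-06), and in TRPM7 shRNA cells, where 1 SH-EP2 array detected PEG3 at a detection p of 0.0481, it was at least 7.56-fold with both arrays set no lower than their dimmest detected probe (adjusted p = 6.07e-07). The SH-SY5Y and SH-EP2 values of NDN and PEG3 did not overlap. Over the alternative settings, the smallest fitted log2 difference between control cells was 1.07 for NDN and 0.71 for PEG3, below these limits.

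SNRPN and PEG10 were detected in both lines and differed by less. SNRPN encodes SmN, a protein of the spliceosome in brain. Its probe ILMN_1693341 read 9.21 and 9.25 in SH-SY5Y control cells and 8.04 and 8.01 in SH-EP2 control cells, a log2 difference of 1.20 (SE 0.12, adjusted p = 7.31e-08). ILMN_1656537 and ILMN_2372082 differed by 0.94 and 0.69, and in TRPM7 shRNA cells the 3 probes differed by 1.07, 0.95 and 0.28, all with an adjusted p of 0.0363 or less. A 4th SNRPN probe, ILMN_1662019, was undetected on every array. PEG10, derived from a retrotransposon, read 6.92 and 6.87 in SH-SY5Y control cells and 5.05 and 4.86 in SH-EP2 control cells with ILMN_1763359, a log2 difference of 1.94 (SE 0.19, adjusted p = 5.54e-08). With ILMN_2297626 it read 8.60 and 8.49 against 6.71 and 6.95, a log2 difference of 1.71 (SE 0.16, adjusted p = 2.21e-08). The 3rd PEG10 probe, ILMN_1670019, was undetected on every array.

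PHLDA2, a small protein with a pleckstrin homology-like domain that restrains placental growth, had the reverse pattern. It read 6.20 and 6.85 in SH-EP2 control cells and 6.44 and 6.39 in SH-EP2 TRPM7 shRNA cells, against 1.46 to 2.04 in the 4 SH-SY5Y samples, none of which was detected. It was at least 10.3-fold lower in SH-SY5Y control cells (adjusted p = 2.36e-09) and at least 10.5-fold lower in TRPM7 shRNA cells (adjusted p = 6.24e-09). H19, a long noncoding RNA that hosts a microRNA, read 4.60 and 5.42 in SH-EP2 control cells and 2.76 and 2.77, undetected, in SH-SY5Y control cells, which is at least 3.63-fold lower in SH-SY5Y (adjusted p = 0.00088). Over the alternative settings, the fitted log2 differences between control cells shrank to -1.01 for PHLDA2 and -0.34 for H19, short of these limits. In TRPM7 shRNA cells H19 was undetected in both lines. MEG3, a long noncoding RNA of the DLK1 cluster, stayed at background, with detection p-values of 0.0532 to 0.447 for ILMN_2061435 and 0.386 to 0.97 for ILMN_1671149. MEST, a protein of the alpha/beta hydrolase fold, stayed there too, apart from a detection p of 0.0039 for ILMN_2278590 on SH-SY5Y TRPM7 shRNA array 1 (log2 3.90), where array 2 read 2.22.

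**Figure D2:**
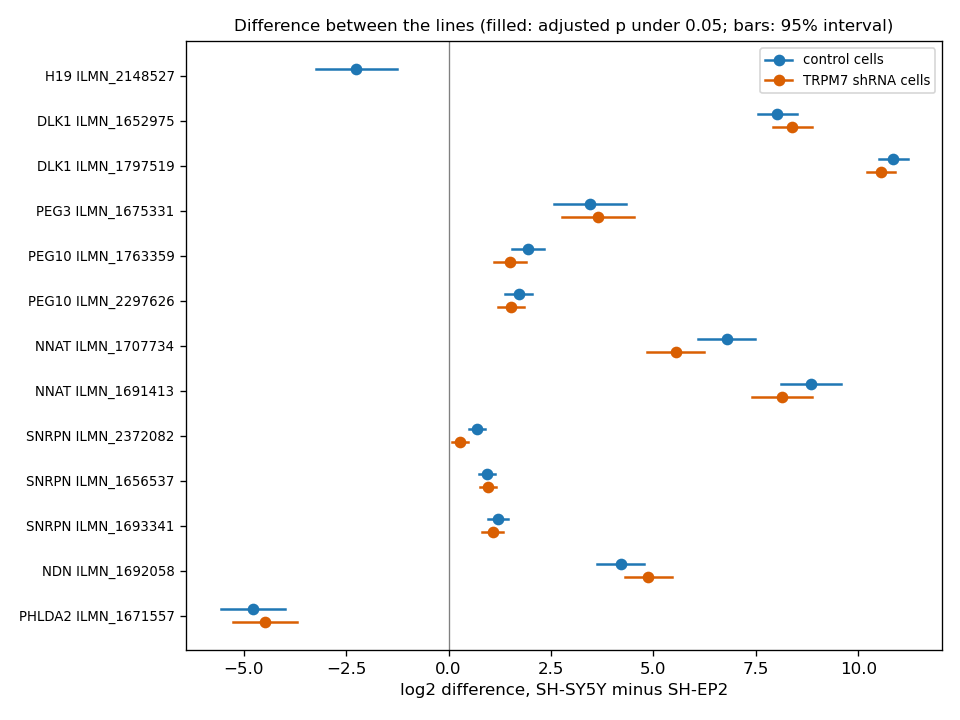
Log2 difference between the lines, SH-SY5Y minus SH-EP2 (horizontal axis), for the 13 detected imprinted gene probes, in control cells (blue) and in TRPM7 shRNA cells (orange), with the 95% interval of the fit. H19 and PHLDA2 lie left of 0 and the other 6 genes to the right, up to 10.85 for DLK1 in control cells; a probe at background in 1 line has a fitted value whose size depends on the background correction.

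The next comparison asked which imprinted genes changed with the TRPM7 shRNA in SH-EP2 cells. PEG10 was higher by both detected probes, and H19, detected in control cells, was no longer detected. SNRPN and PHLDA2, the other members detected in both groups, did not pass the test. In all, 3 of 20 member probes were called, against 3.03% of all probes, and 3 of the 7 that were detected on both arrays of at least 1 of the 2 groups, against 7.54% of such probes. The median log2 difference of the 7 was 0.15, beside 0.019 over all detected probes.

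PEG10 probe ILMN_1763359 read 5.05 and 4.86 in SH-EP2 control cells and 5.89 and 6.20 in TRPM7 shRNA cells, so the groups did not overlap. The means were 4.96 ± 0.13 and 6.05 ± 0.22 (SD, n = 2), a 2.13-fold difference. On the log2 scale the difference was 1.09 (SE 0.19, adjusted p = 0.00152). ILMN_2297626 read 6.71 and 6.95 against 7.29 and 7.81, a log2 difference of 0.72 (SE 0.16, 1.65-fold, adjusted p = 0.0112). PEG10 in SH-EP2 TRPM7 shRNA cells still lay below PEG10 in SH-SY5Y control cells by either probe. Without SH-EP2 TRPM7 shRNA array 2, the brighter of the pair, both probes lost the call, at 0.93 (adjusted p = 0.0509) and 0.46 (adjusted p = 0.288). Without SH-EP2 control array 1, ILMN_2297626 lost it, at 0.60 (adjusted p = 0.16). Both PEG10 calls were also lost without an intensity trend in the fit (adjusted p = 0.101 and 0.34) and in a per-probe test on the 4 arrays (0.42 and 0.607).

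H19 had deposited signals of 140.2 and 150.4 in SH-EP2 control cells, with detection p-values of 0.0039 and 0.0013, and of 115 and 113 in TRPM7 shRNA cells, with detection p-values of 0.305 and 0.36. On the log2 scale these were 4.60 and 5.42 against 2.33 and 2.23. H19 was at least 3.59-fold lower in TRPM7 shRNA cells (adjusted p = 0.00164). The signals lay close to the modelled background of the SH-EP2 arrays, 106.7 to 111.1 units. The fitted log2 difference of -2.74 (SE 0.48) became -0.41 without background correction. Leaving out any 1 array left values from -3.15 to -2.35, all with an adjusted p of 0.0395 or less, while the per-probe test gave an adjusted p of 0.399. The array has 1 H19 probe, so this value has no check by another probe.

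PHLDA2 gave a log2 difference of -0.11 (95% interval -0.89 to 0.67, adjusted p = 0.957). The 3 detected SNRPN probes gave 0.15, -0.18 and 0.28, with adjusted p-values of 0.595, 0.45 and 0.294. DLK1, NDN, MEG3, MEST and NNAT probe ILMN_1707734 were undetected in both SH-EP2 groups and have no fold change there. PEG3 gave -0.35 and NNAT ILMN_1691413 gave -0.00098 (limma adjusted p = 0.828 and 0.999), both near the background with few arrays detected. Mesenchymal marker signals summed to 48670 to 48960 in control and 50140 to 51870 in TRPM7 shRNA cells of this line, with all 10 genes detected in both, and noradrenergic ones to 351 to 363 and 342 to 404, with 5 of 10 undetected in both; their part in the PEG10 and H19 results was not tested.

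In SH-SY5Y cells the same comparison gave no call among the imprinted genes. PEG10 was higher and NNAT lower in TRPM7 shRNA cells, with groups that did not overlap, but the differences missed the threshold. DLK1, NDN and PEG3 were within 0.29 log2 units of the control cells. With limma, 0 of 20 member probes were called, beside 2.12% of all probes, and 0 of the 11 detected ones, beside 5.07%. At an unadjusted p under 0.05 there were 5, of which 4 were detected, beside 11.4% of all probes. With other background corrections (neqc, normexp or none), and in a fit of the 4 arrays of this line on their own, 4 probes were called, and these were both PEG10 and both NNAT probes. Of all probes, 2.44%, 2.86%, 2.94% and 1.8% were called under these 4 settings, in this order. The median log2 difference of the 11 was 0.014, beside 0.022 over all detected probes. Median scaling turned the balance of all calls in this line, from 386 higher and 617 lower probes to 553 and 284.

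PEG10 read 6.92 and 6.87 in control and 7.60 and 7.50 in TRPM7 shRNA cells by ILMN_1763359, a log2 difference of 0.66 (SE 0.19, limma adjusted p = 0.0871). By ILMN_2297626 it read 8.60 and 8.49 against 9.14 and 9.01, a log2 difference of 0.53 (SE 0.16, adjusted p = 0.0996). Under 17 alternative settings the values ran from 0.37 to 0.81 and from 0.42 to 0.66, and each probe passed the threshold in 4 of them. All 4 differences of PEG10, in both lines and by both probes, were above 0.

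NNAT read 7.85 and 8.32 in control and 7.31 and 6.87 in TRPM7 shRNA cells by ILMN_1707734, a log2 difference of -0.99 (SE 0.33, adjusted p = 0.167). By ILMN_1691413 it read 11.76 and 11.78 against 10.99 and 11.13, a difference of -0.71 (SE 0.35, adjusted p = 0.461). The fit shares 1 spread over all groups, and for this probe it takes in the SH-EP2 control arrays, at 1.98 and 3.88, which are far apart near the background. Without SH-EP2 control array 1 or array 2 the difference was -0.71 in either case, with adjusted p-values of 0.0174 and 0.0235. In the 4 SH-SY5Y arrays alone it was -0.72, with an adjusted p of 2.7e-05. Summed noradrenergic marker signals were 24880 to 26210 in control and 18580 to 19850 in TRPM7 shRNA cells of this line, with 9 of 10 genes detected in both, and mesenchymal ones 12880 to 14250 and 10740 to 11150, with 6 of 10 detected in both; their part in the NNAT and PEG10 values was not tested.

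DLK1 differed by 0.014 (95% interval -0.33 to 0.36) by ILMN_1797519 and by 0.10 (95% interval -0.37 to 0.57) by ILMN_1652975, and neither interval reaches beyond 0.57 in either direction. NDN gave 0.29 (adjusted p = 0.789) and PEG3 -0.16 (adjusted p = 0.944). The 3 detected SNRPN probes gave -0.26, -0.16 and 0.15, with adjusted p-values of 0.24, 0.568 and 0.712. The values of DLK1 and PEG3 overlapped between the groups.

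**Figure D3:**
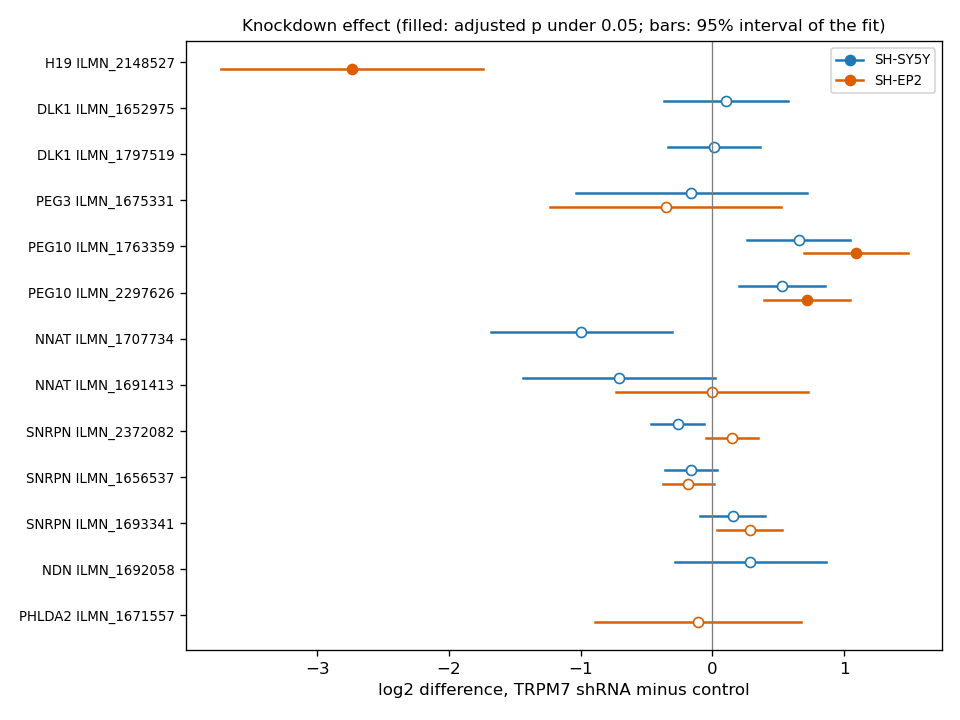
Log2 difference, TRPM7 shRNA minus control (horizontal axis), for the 13 detected imprinted gene probes in SH-SY5Y (blue) and SH-EP2 cells (orange), with the 95% interval of the fit. Filled points passed an adjusted p of 0.05: both PEG10 probes and H19 in SH-EP2 cells. No point is drawn where a probe was undetected on all arrays of a line; PEG3 and NNAT ILMN_1691413 in SH-EP2 cells rest on 1 or 2 detected arrays of 4.

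Whether the effect of the shRNA differed between the lines was tested with an interaction term. No member probe passed, beside 1.41% of all probes, and 3 had an unadjusted p under 0.05 with limma (H19, NNAT ILMN_1707734 and SNRPN ILMN_2372082), beside 10.3% of all probes. Without background correction and with normexp, 2 probes passed, beside 2.6% and 2.4% of all probes. None of these was a PEG10 or SNRPN probe. All other members lacked, in 1 of the lines, a group with both arrays detected, so these passes do not measure a difference between the lines. For PEG10, detected everywhere, the effect in SH-SY5Y minus that in SH-EP2 was -0.43 (95% interval -0.99 to 0.12, adjusted p = 0.629) by ILMN_1763359 and -0.19 (95% interval -0.65 to 0.27, adjusted p = 0.849) by ILMN_2297626. These differences turned above 0 without background correction, at 0.057 and 0.015. For SNRPN ILMN_2372082 it was -0.41 (SE 0.14, adjusted p = 0.202). H19 was undetected in SH-SY5Y cells and NNAT ILMN_1707734 in SH-EP2 cells, so a difference in their effects between the lines was not measured.

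The probes with the pattern most like each member called in SH-EP2 cells were found by Pearson's r over the 8 arrays, as a description, since the 4 arrays of a line share that line's level and 521 and 816 probes had an r over 0.95 with the 2 PEG10 probes. PEG10 ILMN_1763359 was nearest to NR2C1 (r = 0.9979), PSME3 (0.9955) and FOXRED1 (0.9943). ILMN_2297626 was nearest to WDR90 (r = 0.9974), PSME3 (0.9948) and SEC11C (0.9948). H19 had 22 such probes, led by C3orf24 (r = 0.9898), RHEB (0.9767) and ATP9A (0.9703). With the TRPM7 shRNA in SH-EP2 cells, the log2 differences of these H19 neighbours were -1.42, -0.30 and -0.68 (adjusted p = 0.0953, 0.0149 and 0.000354). Of the 5 genes near PEG10, NR2C1 passed (1.00, limma adjusted p = 0.0308). PSME3, FOXRED1, WDR90 and SEC11C gave 0.29 to 0.33 and did not (adjusted p = 0.12 to 0.407). Because the neighbours were picked on the same 8 arrays, these differences and p-values are no independent test of H19 or PEG10.

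The clusters around the members held genes with other patterns. In the H19 cluster, IGF2, the growth factor that shares control elements with H19, was not detected on both arrays of any group by any of its 3 probes, in SH-EP2 control cells included. CDKN1C, an inhibitor of cyclin-dependent kinases in the cluster of PHLDA2, read 7.24 and 7.35 in SH-SY5Y control cells and was undetected on the 4 SH-EP2 arrays, which is at least 16.8-fold higher in SH-SY5Y (adjusted p = 6.1e-11). CDKN1C and PHLDA2, both known as maternally expressed, thus lay on opposite sides. SLC22A18, of the same cluster, lay on the side of PHLDA2. It was 1.81 lower in SH-SY5Y control cells on the log2 scale by ILMN_2382505 (adjusted p = 2.03e-07). RTL1, a retrotransposon-derived gene beside DLK1, was not detected on both arrays of any group.

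SGCE, the sarcoglycan gene next to PEG10 that shares its promoter region, read 10.70 and 10.90 in SH-SY5Y and 11.60 and 11.54 in SH-EP2 control cells. It was 0.77 lower in SH-SY5Y on the log2 scale (adjusted p = 6.57e-07), the opposite side to PEG10. With the TRPM7 shRNA, the SGCE difference was -0.21 in SH-EP2 cells and -0.15 in SH-SY5Y cells (adjusted p = 0.284 and 0.586). BLCAP, the gene in which NNAT lies, was likewise 1.03 lower in SH-SY5Y control cells (adjusted p = 2.56e-06), opposite to NNAT. Its values with the TRPM7 shRNA were -0.43 in SH-SY5Y cells and 0.064 in SH-EP2 cells (adjusted p = 0.114 and 0.921).

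SNURF, which shares a transcript with SNRPN so that their probes are no independent readings, was 0.79 higher in SH-SY5Y control cells by ILMN_1660000 (adjusted p = 5.29e-06). MAGEL2, a MAGE family neighbour of NDN, read 5.55 and 5.71 in SH-SY5Y and 5.84 and 5.43 in SH-EP2 control cells, a difference of -0.0093 (95% interval -0.55 to 0.53). MKRN3, a ubiquitin ligase gene of the same cluster, was 2.29 lower in SH-SY5Y control cells by ILMN_3307668 (adjusted p = 2.63e-06), with 3.59 and 3.37 against 5.85 and 5.70. MKRN3 was named after its values were seen. NDN and MKRN3 thus lay on opposite sides, and MAGEL2 gave overlapping values.

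**Figure D4:**
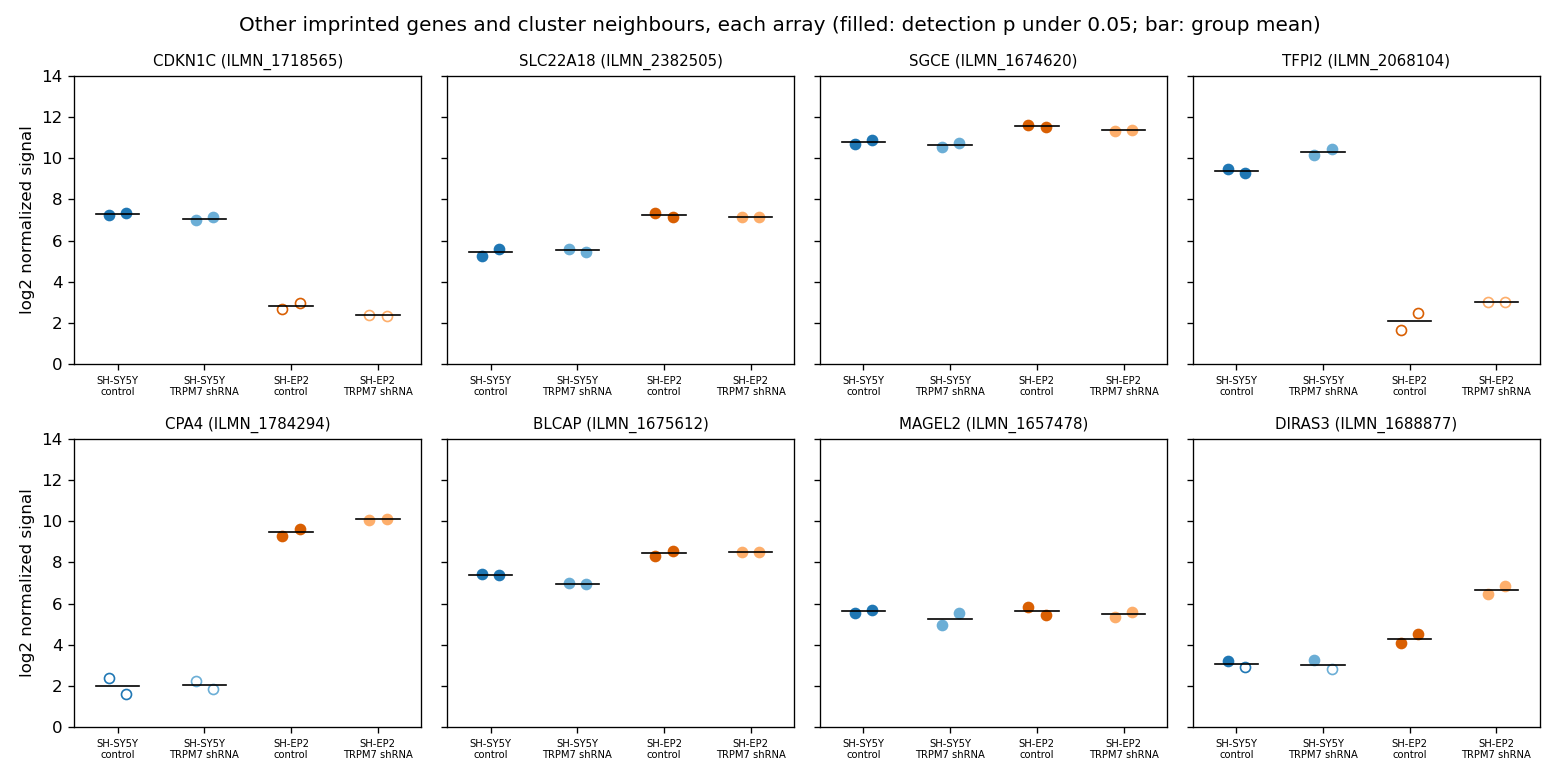
Log2 normalized signal (vertical axis) of 8 probes of other imprinted genes and cluster neighbours in the 4 groups (horizontal axis). Each point is an array, filled where detected, and the line is the group mean; CDKN1C and TFPI2 are filled in SH-SY5Y cells alone, CPA4 in SH-EP2 cells alone, and DIRAS3 is brightest in SH-EP2 TRPM7 shRNA cells. CPA4 and SLC22A18 were added after their values were seen.

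Over a wider list of other imprinted genes and their neighbours, 46 of 50 symbols were found, with 73 probes, of which 35 probes of 30 genes were detected on both arrays of at least 1 group. Between control cells, 13 of 34 detected probes were higher and 8 lower in SH-SY5Y, with a median log2 difference of 0.12. Of all 19975 probes detected there, 6382 were higher and 5551 lower, with a median of 0.074. Over all probes, detected or not, these calls are the 13.5% and 11.7% given above. With the TRPM7 shRNA, 1 of 33 detected probes was called in SH-SY5Y cells (median -0.096) and 1 of 27 in SH-EP2 cells (median -0.00094), beside 5.07% and 7.54% of all detected probes. In SH-SY5Y cells this was TFPI2, a protease inhibitor encoded near PEG10, which read 9.49 and 9.27 in control and 10.18 and 10.46 in TRPM7 shRNA cells, a log2 difference of 0.94 (SE 0.24, adjusted p = 0.0403). The TFPI2 call was lost on leaving out any 1 of the 4 SH-SY5Y arrays, with adjusted p-values of 0.111 to 0.366 and differences of 0.80 to 1.08. It was also lost without an intensity trend (0.384), in the per-probe test (0.601) and with a replicate block (0.0502).

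In SH-EP2 cells it was DIRAS3, a small GTPase of the RAS family that is known as paternally expressed. Its probe ILMN_1688877 read 4.09 and 4.50 in control and 6.48 and 6.86 in TRPM7 shRNA cells, a log2 difference of 2.37 (SE 0.36, 5.18-fold, adjusted p = 0.00038), the largest difference with the shRNA among the detected probes of this list. The groups did not overlap. The log2 difference was 0.70 without background correction, 0.94 with normexp and 1.59 with neqc, and the per-probe test did not call it (adjusted p = 0.366). The other DIRAS3 probe, ILMN_2174215, was detected on 1 of the 8 arrays, in the same group.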

How the data were processed

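Per the labels, the bead arrays (4 groups of 2) were extracted in GenomeStudio 2011.1. The authors deposited intensities on a linear scale, not normalized between arrays, and a detection p-value for each of 47322 probes and 8 arrays. The study itself normalized by Robust-Multi-Array and does not name its test. The genome build behind the probes is not given in the sources used here.

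Intensities went through the background model of RMA, were quantile normalized across the 8 arrays and put on a log2 scale; no probe was filtered out. A model with 4 group means was fitted in limma 3.58.1 (R 4.3.3, with statmod 1.5.0), with moderated variances that follow the signal level. Tests were two-sided and p-values were adjusted by Benjamini-Hochberg across every probe, with a threshold of 0.05. Calls between lines also required detection on 2 of 2 arrays of the group with the higher mean, and calls of the interaction such detection in at least 1 group. The number of arrays limits the precision. The procedure was tested on simulated data.

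Every probe of the 10 members is reported, with cluster neighbours fixed by name, called probes of the wider list, and the 3 probes most like each called member. MKRN3, CPA4 and SLC22A18 were not fixed by name and were added after their values were seen. The members and lists were chosen with earlier results of these data known. Replicate numbers were checked for pairing by correlating replicate differences over 14577 probes, which gave -0.111 in SH-SY5Y and -0.00442 in SH-EP2 cells, so the numbers were not used as pairs.

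As alternatives, the background step was replaced by neqc (offset 16), by normexp (offset 50) or by none, and quantile normalization by median scaling. Further alternatives kept probes with 2 or more detected arrays, dropped the intensity trend, used a per-probe test without eBayes, fitted the compared groups alone, added a replicate block, or left out each array. A crossed block in SH-SY5Y was added after seeing the data.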

Additional observations from a re-analysis of the deposited data

Results flagged for a closer look

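DIRAS3 probe ILMN_1688877 passed the interaction test, which compares the effect of the TRPM7 shRNA between the lines. No SH-SY5Y group had both arrays detected for this probe. As for the members above, this pass therefore does not measure a difference between the lines. The effect in SH-SY5Y minus that in SH-EP2 cells was -2.38 on the log2 scale (limma interaction, SE 0.50, adjusted p = 0.0157). It read 3.19 and 2.90 in control and 3.24 and 2.82 in TRPM7 shRNA cells of SH-SY5Y, with 1 of 2 arrays detected in each group, and rose from 4.09 and 4.50 to 6.48 and 6.86 in SH-EP2 cells. The difference kept its sign in 15 alternatives and missed the threshold in 5 of them, with adjusted p-values from 7.39e-05 to 0.169. Its size ran from -2.59 to -0.70, and was -0.70 without background correction, -0.95 with normexp and -1.60 with neqc. Those 5 were the fit without an intensity trend (adjusted p = 0.132) and those without SH-SY5Y TRPM7 shRNA array 2 (0.0569), SH-EP2 control array 1 (0.0863), SH-EP2 TRPM7 shRNA array 1 (0.0717) or SH-EP2 TRPM7 shRNA array 2 (0.169).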

How the results depend on the processing

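In SH-SY5Y cells, 0 member probes were called with the TRPM7 shRNA, but 4 with neqc, with normexp, without background correction and with the 2 groups alone, 1 with the crossed block, and 0 to 1 on leaving out 1 array (1 without SH-SY5Y TRPM7 shRNA replicate 2 or either SH-EP2 control array). In SH-EP2 cells the 3 calls became 1 without an intensity trend, 0 in the per-probe test, and 1 to 3 on leaving out 1 array (1 without TRPM7 shRNA replicate 2). Between the lines, the per-probe test left 5 of 13 calls in control and 7 of 12 in TRPM7 shRNA cells. For the interaction, 0 became 2 without background correction and with normexp, and 0 to 1 on leaving out 1 array (1 without SH-EP2 control replicate 2). No probe that passed the interaction was a PEG10 or SNRPN probe, the only members with both arrays of a group detected in each line. The cause of these changes in the counts was not tested. With the replicate number as a block the counts were 0 and 3 with the TRPM7 shRNA, 13 and 12 between the lines and 0 for the interaction, as without it. Small differences that missed the threshold changed sign. In the interaction these were PEG10 ILMN_1763359 (0.057 without background correction, 0.014 with normexp), PEG10 ILMN_2297626 (0.015 without background correction), and SNRPN ILMN_1693341 (0.011 with median scaling). PEG3 in SH-SY5Y gave 0.016 with median scaling. On leaving out 1 array, values ran from -0.065 to 0.096 for DLK1 ILMN_1797519 and from -0.054 to 0.26 for ILMN_1652975 in SH-SY5Y cells, from -0.43 to 0.21 for PHLDA2 in SH-EP2 cells, and in the interaction from -0.027 to 0.066 for SNRPN ILMN_1656537, from -0.26 to 0.0063 for ILMN_1693341 and from -0.45 to 0.069 for PEG10 ILMN_2297626. Where a group had 1 array left, it was assumed to vary like the others. Probes near the background, such as H19, have fold changes whose size rests on the background correction. The same holds for the lower limits given for probes undetected in a group.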
